A study of Homo sapiens with 12 samples.

Results

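The human melanoma cell line WM35 was exposed to ciclopirox for 24 h, and its messenger RNA was set against that of cells given only the vehicle (DMSO). Ciclopirox is a medicine against fungi that chelates iron. The members are the 4 arrays titled as ciclopirox 24 h (2) and control (2), of 12 arrays in all. The other arrays hold ciclopirox at 8 h (3), crizotinib at 8 h (3) and crizotinib at 24 h (2). Per the labels' protocols, cells grew in culture medium with 5% serum and each drug was given at the concentration that inhibited 75% at 72 h. No hour of DMSO exposure is stated in the titles of the control arrays. All groups are 1 cell line, and separate cultures are not stated for the replicates. The p-values thus cover the spread among these arrays alone, and that spread may be technical.

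Iron is a cofactor of many enzymes. Prolyl hydroxylases use it to mark the hypoxia-inducible factor HIF for destruction, and ribonucleotide reductase uses it to make DNA precursors. Cells short of amino acids or under other stress phosphorylate the initiation factor eIF2, which raises translation of the transcription factor ATF4. ATF4 and its partners then raise genes of amino acid synthesis and transport, a programme called the integrated stress response. The tumour suppressor p53 raises genes that stop the cell cycle, repair DNA or promote death.

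The labels disagree about which array is which, and every result depends on it. The deposited scanner table names its columns by position on the BeadChip, and each sample's description gives its position. The normalized table names its columns by sample. Over 10744 probes with a signal above 50 on all 12 arrays, each scanner column matched 1 sample column closely (r from 0.957 to 0.985, the next best at most 0.690, across probes after centring each probe over the arrays). Only the 2 control arrays matched the sample their description names, and the other 10 did not. The array described as ciclopirox 24 h replicate 1 matched ciclopirox 24 h replicate 2, and the array described as replicate 2 matched crizotinib 8 h replicate 1. Grouped by the normalized table, arrays of a group correlated with a mean r of 0.52 (lowest 0.27), and 12 of 12 arrays were closest to their own group. Grouped by the descriptions, the mean was 0.23 (lowest -0.30) and 5 of 12 were closest to their own group.

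**Figure D1:**
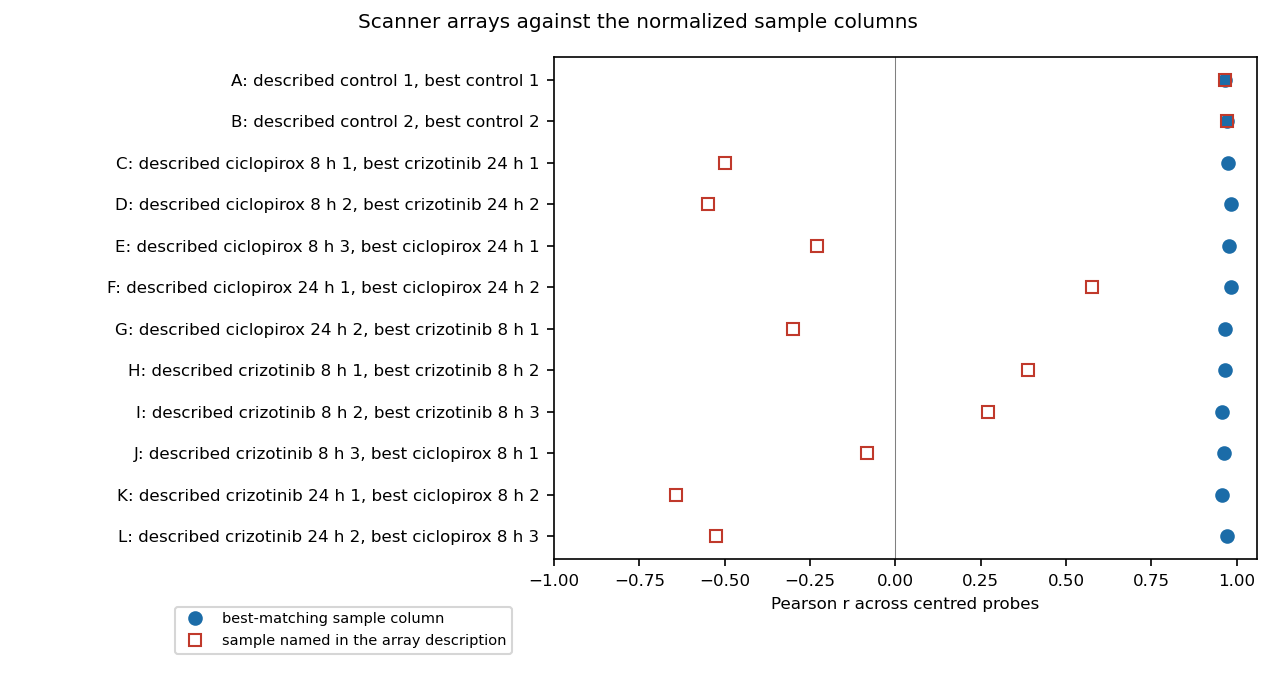
Pearson correlation, across probes centred over the 12 arrays, of each scanner array (rows, by BeadChip position) with its best-matching sample column (filled circles) and with the sample its description names (open squares). Both symbols coincide near 1 for the 2 control arrays, and for the other 10 arrays the described sample lies well to the left of the best match.

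The values below are log2 intensities of the normalized table, whose columns carry the sample titles' groups directly. Which labelling is right cannot be settled from the labels, so counts and medians with the columns taken by description are given for the main lists, and differences for the leading genes. Either way each group fills neighbouring positions of 1 BeadChip, so group and position cannot be told apart.

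A probe was tested where its detection p was below 0.01 on at least 2 of the 4 arrays, which kept 14773 of the 38223 probes of the normalized table. The fit was by limma over all 12 arrays with a mean for each of the 5 groups, and a probe was called at a Benjamini-Hochberg adjusted p below 0.05. Between ciclopirox at 24 h and control, 2424 probes differed (16.4% of those tested): 1162 were higher (7.87%) and 1262 lower (8.54%) than in control. Of these, 190 were at least 2-fold higher (1.29%) and 115 at least 2-fold lower (0.778%). As no hour is stated for the controls, drug, time in culture and chip position cannot be told apart in these differences. Taking 1 probe for each of 9515 named genes, 879 genes were higher (9.24%) and 835 lower (8.78%), and these shares are the background for the gene groups below. The median difference over these genes was -0.01 on the log2 scale. The balance of the directions depended on scaling: higher and lower probes numbered 1653 and 1376 with scanner values matched by value and neqc, 1352 and 1077 with those values median-centred, and 1327 and 1153 with the normalized table quantile-normalized again. The count rested on each control: without control replicate 1 it was 1095 (646 higher and 449 lower), without control replicate 2 it was 1076 (490 and 586), and without ciclopirox 24 h replicate 1 it was 1337. With scanner columns taken by description, 2 of 16377 probes (0.0122%) were called (KCNH1 higher by 1.23 and HSPE1 lower, with -1.70 on the same scale), and 1707 had an unadjusted p below 0.05. KCNH1 encodes a potassium channel and HSPE1 a mitochondrial chaperonin, and both are named because that count is small. This HSPE1 probe is not the one that stands for the gene in the lists below. That other probe differed by -0.89 by description (limma adjusted p = 0.27) and was not called there.

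**Figure D2:**
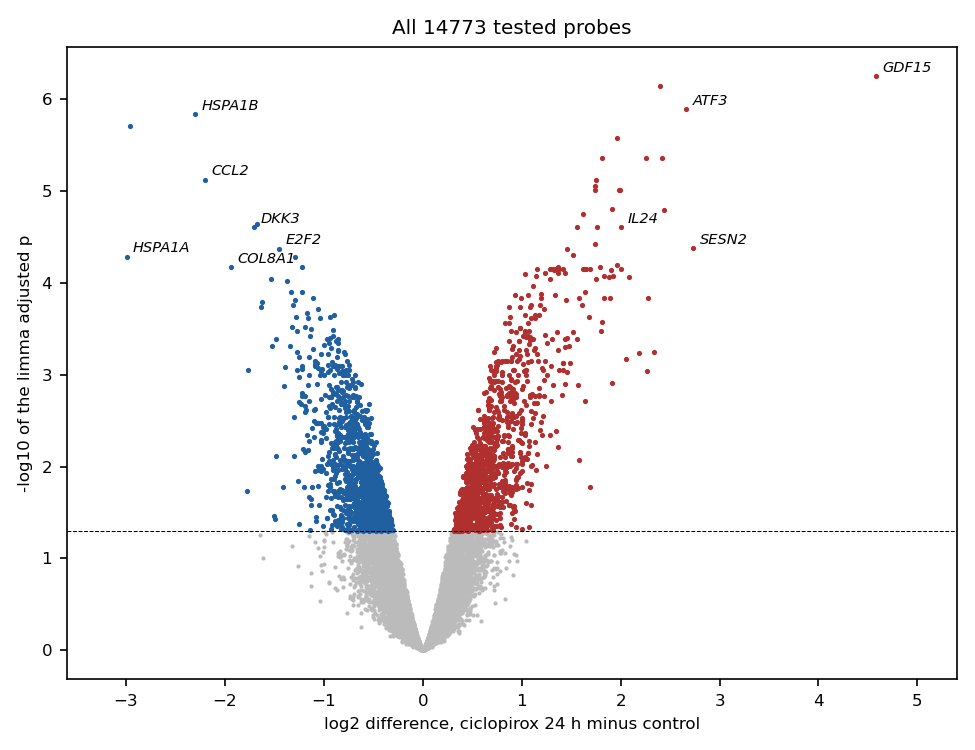
Log2 difference between ciclopirox at 24 h and control (x axis) against the -log10 of limma's adjusted p (y axis) for the 14773 tested probes, with called probes in red (higher) and blue (lower) above the dashed line at 0.05. GDF15 lies farthest to the right, and HSPA1A and HSPA1B lie far to the left.

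The 2 arrays at 24 h differed in how many probes moved far. Against the control mean, 486 probes on replicate 1 (253 higher and 233 lower) and 338 on replicate 2 (201 and 137) differed by 2-fold or more, while the 2 controls differed that much from each other at 31 probes. With scanner values matched by value and median-centred the counts were 437 and 286. Taken by description, they were 297 and 59. Between the 2 arrays themselves, 97 probes differed by 2-fold or more, of which 84 were lower on replicate 1 and 13 higher. With the scanner values matched and median-centred there were 54, of which 32 were lower on replicate 1 and 22 higher.

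**Figure D3:**
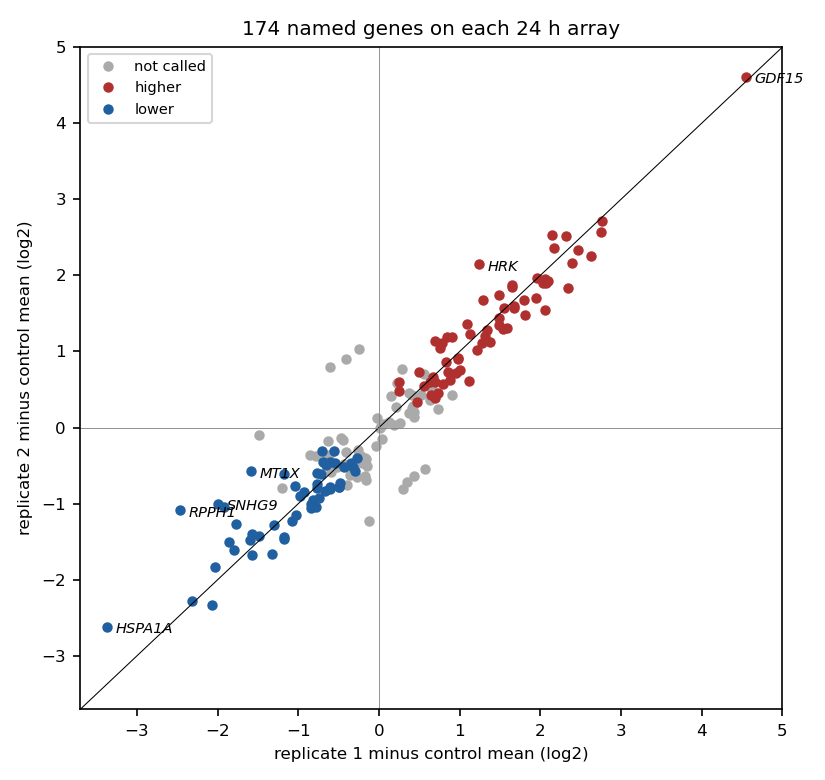
Log2 difference from the control mean on ciclopirox 24 h replicate 1 (x axis) and replicate 2 (y axis) for the 174 genes named by rule, coloured by call, with the line of equality. A call tests the mean of the 2 arrays, with their difference as part of the spread. Calls thus favour genes near the line by construction but do not require it. RPPH1, MT1X and SNHG9 lie above it, being lower on replicate 1.

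Genes of the integrated stress response were the group with the most calls upward. Of 33 tested members, 29 were higher and 0 lower, against 9.24% of all genes, with a median log2 difference of 1.04 against -0.01. All 6 tested transcription factors of the list, all 7 feedback and signalling genes and all 8 genes of amino acid synthesis were called higher. Of amino acid transporters 4 of 6 were higher, and of the tRNA synthetases, which load amino acids on tRNA, 4 of 6. The count stayed between 24 and 30 over 25 alternatives that kept the sample columns, and by description it was 0 of 31 with a median of 0.49.

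ATF4 and its partners act through the composite C/EBP-ATF site, written here as TGATGNAA. These letters were searched on both strands in the 250 bases before each gene's start (RefSeq, GRCh38.p14). A match stood in 4 of the 22 promoters available among members called higher (18.2%) and in 4 of 26 of those tested (15.4%). The share was 3.19% of all 27305 promoters. The 4 windows follow, each on its gene's strand, with the match in capitals (CHAC1 and AARS1 carry it on the other strand, so the capitals read as its reverse complement). They lie at chr1:212565186-212565253 (ATF3), chr7:97872439-97872506 (ASNS), chr15:40953232-40953299 (CHAC1) and chr16:70289656-70289723 (AARS1). CHAC1, which degrades glutathione, and AARS1, the alanyl-tRNA synthetase, are shown because they hold the other 2 matches.
ATF3: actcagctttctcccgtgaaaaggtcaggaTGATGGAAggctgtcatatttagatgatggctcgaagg
ASNS: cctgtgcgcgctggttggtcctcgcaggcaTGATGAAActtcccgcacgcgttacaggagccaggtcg
CHAC1: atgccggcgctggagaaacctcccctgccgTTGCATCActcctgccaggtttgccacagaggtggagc
AARS1: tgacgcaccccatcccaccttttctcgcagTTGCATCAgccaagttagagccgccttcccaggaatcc

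GDF15, a secreted stress cytokine of the TGF-beta family, changed more than any other tested gene. Its log2 intensity was 4.83 and 5.25 in the controls and 9.59 and 9.65 at 24 h. The groups were far apart, and 1 of the 2 controls was not detected above background. The log2 difference was 4.58 (SE 0.18, n = 2 per group, limma adjusted p = 5.6e-07). At 8 h of ciclopirox the 3 arrays read 5.21, 5.03 and 4.79, within the control range or just below it.

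ATF3, a transcription factor induced by ATF4, read 7.06 and 7.11 in the controls and 9.83 and 9.66 at 24 h. The difference was 2.66 (SE 0.12, limma adjusted p = 1.3e-06), and both 24 h arrays lay above all controls. DDIT3 encodes CHOP, a factor that promotes death under lasting stress. It read 7.89 and 7.82 in the controls and 10.33 and 10.19 at 24 h, a difference of 2.40 (SE 0.10, limma adjusted p = 7.2e-07). The 2 arrays of each group differed by far less than the groups.

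SESN2, a stress-induced inhibitor of mTORC1 signalling, read 5.31 and 5.07 in the controls, of which 1 was not detected above background, and 7.95 and 7.91 at 24 h, a log2 difference of 2.74 (SE 0.21). ASNS makes asparagine and carries the element printed above. Its intensity was already high in the controls, 11.98 and 11.99, and reached 13.78 and 13.66 at 24 h, a difference of 1.74 (SE 0.11). TRIB3, a pseudokinase that restrains ATF4 and CHOP, rose by 1.75 (SE 0.11), PPP1R15A, which returns eIF2 to its unphosphorylated state, by 1.76 (SE 0.13), and the glycine transporter SLC6A9 by 2.34 (SE 0.29). For these 5 genes the groups did not overlap, as was so for 60.9% of all genes.

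**Figure D4:**
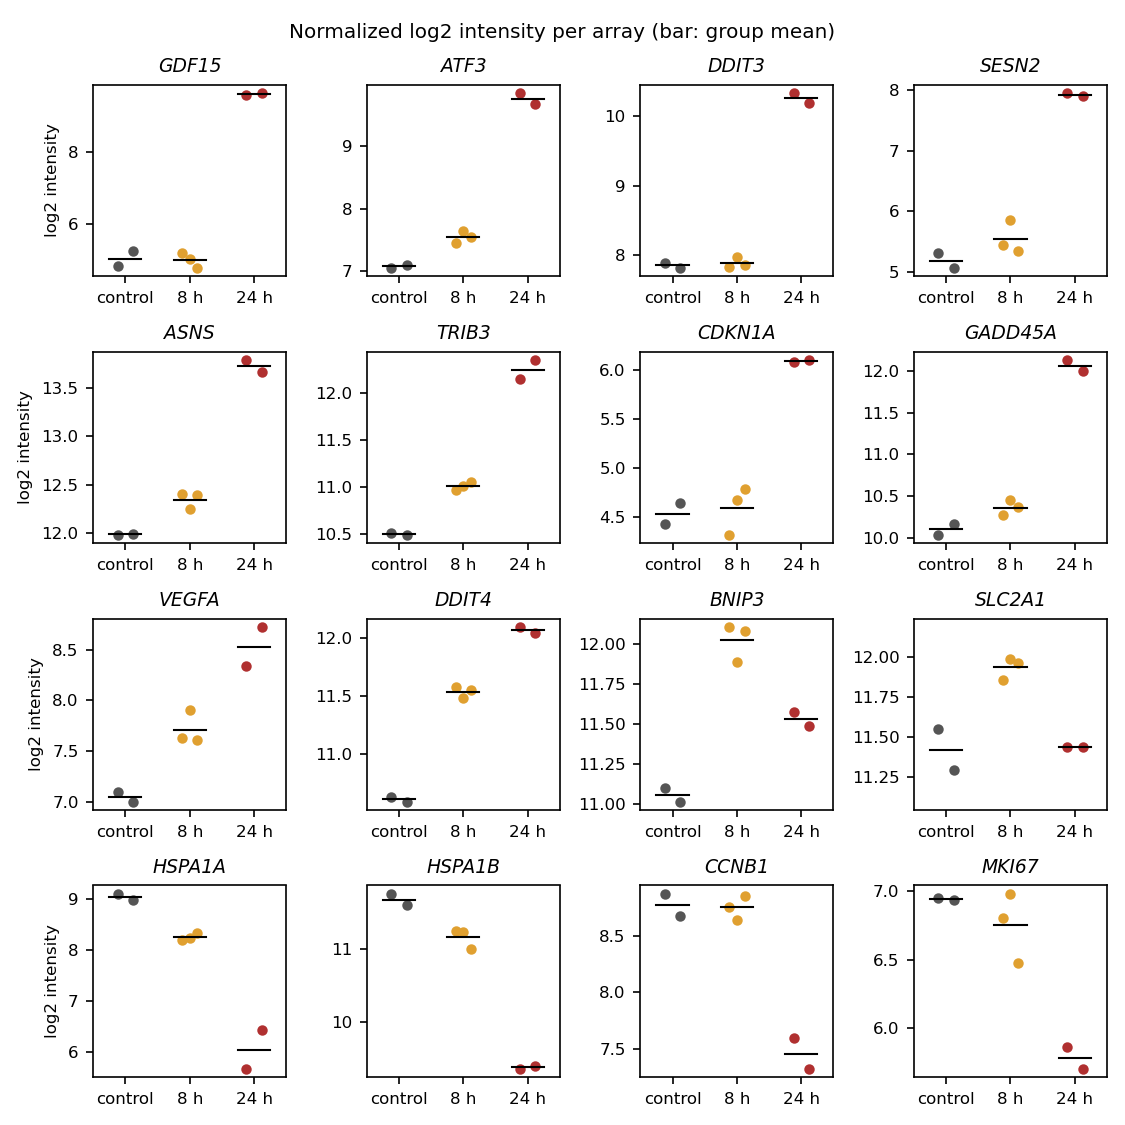
Normalized log2 intensity of 16 genes on each array of control, ciclopirox 8 h and ciclopirox 24 h (points), with group means as bars; each panel has its own y axis. GDF15, DDIT3 and CDKN1A sit at the control level at 8 h and above it at 24 h, while BNIP3 and SLC2A1 are highest at 8 h.

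Targets of p53 were higher at 24 h. Of 20 tested, 16 rose and 0 fell (background 9.24% and 8.78%), with a median log2 difference of 1.10. By function, 3 of 4 genes of cell cycle arrest, 4 of 6 of cell death and 4 of 5 of feedback and repair were called, with 5 of 5 others. No member is shared with the integrated stress response list as drawn up here (0 genes). That follows from the choice of list members and does not show that the responses are separate. The count was 13 to 17 over the 25 alternatives, and by description 0 of 18 with a median of 0.49.

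CDKN1A encodes p21, an inhibitor of cyclin-dependent kinases. It read 4.42 and 4.64 in the controls, where it was not well above background, and 6.08 and 6.10 at 24 h, where it was detected on both arrays. It was at least 2.66-fold higher (the 24 h mean over the lowest detected signal of each control array, or the probe's own where higher). It passed the detection filter through the 24 h arrays alone, so no test is given as support. It is still among the p53 targets and arrest genes counted as higher, so those counts include a member that the filter favoured.

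GADD45A, a growth-arrest gene that ATF4 can also raise, went from 10.03 and 10.17 to 12.13 and 12.001, a difference of 1.97 (SE 0.10, limma adjusted p = 2.7e-06). PHLDA3, an inhibitor of AKT, rose by 1.62 (SE 0.11). SESN1, the sestrin most tied to p53, rose by 1.64 (SE 0.16), TP53INP1, a cofactor in death and autophagy, by 1.83 (SE 0.18), and ZMAT3, an RNA-binding p53 target, by 1.44 (SE 0.14). At 8 h, limma called 0 of the 20 members against control in either direction (0.841% of all genes were called).

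Calls among HIF targets were uneven in number across the functions listed. Of 40 tested, 12 were higher and 1 lower (background 9.24% and 8.78%), with a median log2 difference of 0.25. The angiogenesis and signalling genes were higher in 5 of 6, and those of survival and mitophagy in 6 of 8. Of 18 genes of glucose uptake and glycolysis, 1 was higher and 1 lower, and of 8 oxygen-sensing feedback genes 0 were called by limma. The difference between these subgroups was not tested. Without control replicate 2 the higher count was 8, and by description it was 0 of 40 with a median of 0.11.

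STC2, a secreted glycoprotein, read 6.73 and 6.71 in the controls and 8.21 and 8.47 at 24 h, a difference of 1.61 (SE 0.14, limma adjusted p = 7.2e-05). VEGFA, the main growth factor of blood vessels, read 7.09 and 6.998 in the controls and 8.34 and 8.72 at 24 h, a difference of 1.48 (SE 0.19, limma adjusted p = 0.00075). Both rose on each array with no overlap. DDIT4, an inhibitor of mTORC1 that is also in the integrated stress response list, went from 10.62 and 10.59 to 12.09 and 12.04, a difference of 1.46 (SE 0.12). EDN1, a vessel-constricting peptide, rose by 1.25 (SE 0.17), ANGPTL4, a lipoprotein lipase inhibitor, by 1.18 (SE 0.18), and ALDOC, an aldolase and the single glycolytic gene called higher, by 1.046 (SE 0.14).

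BNIP3, a mitophagy receptor, and SLC2A1, the glucose transporter GLUT1, were among those not called at 24 h. BNIP3 read 11.10 and 11.02 in the controls, 12.11, 11.89 and 12.08 at 8 h, and 11.57 and 11.49 at 24 h. Its 24 h value differed from control by 0.47 (limma adjusted p = 0.057) and from 8 h by -0.49 (limma adjusted p = 0.032). SLC2A1 read 11.55 and 11.29, then 11.86, 11.99 and 11.96 at 8 h, and 11.44 on both arrays at 24 h. Its difference from control was 0.02 at 24 h (SE 0.11) and 0.52 at 8 h (limma adjusted p = 0.043), and it was lower at 24 h than at 8 h by limma (-0.50, adjusted p = 0.0063).

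Over all tested probes, 19.4% differed between 24 h and 8 h of ciclopirox (11.1% higher and 8.36% lower at 24 h), and of 1 probe per gene 21.5%. Of the 40 HIF targets, 5 were higher at 24 h and 5 lower (background 12.7% and 8.84%), and against control 10 were higher at 8 h (background 0.452%). The 8 h and 24 h comparisons share their controls, so these counts are not independent of each other. Of the integrated stress response, 25 of 33 members were higher at 24 h than at 8 h and 0 lower, and 3 were called higher at 8 h against control. Of p53 targets, 17 of 20 were higher at 24 h than at 8 h, among them CDKN1A, which the filter favoured.

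The core of the HIF binding site, ACGTG, searched on both strands of the 250 bases before the start, stood in 6 of the 9 promoters available among HIF targets called higher (66.7%), in 20 of 37 of those tested (54.1%) and in 18.7% of all promoters. The windows of DDIT4 (chr10:72273769-72273833) and ANGPTL4 (chr19:8363905-8363955) are shown as examples: DDIT4 was higher at 24 h than at 8 h (by 0.53, limma adjusted p = 0.0067), while the difference for ANGPTL4 was not called (-0.50, limma adjusted p = 0.053). Capitals mark the core on the gene's strand for DDIT4 and its reverse complement for ANGPTL4.
DDIT4: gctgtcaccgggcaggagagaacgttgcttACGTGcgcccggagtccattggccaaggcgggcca
ANGPTL4: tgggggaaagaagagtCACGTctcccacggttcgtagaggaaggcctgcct

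Genes of cell division were lower at 24 h. Of 41 tested genes of mitosis, 33 fell and 0 rose (background 8.78% and 9.24%), with a median log2 difference of -0.60. Spindle and kinetochore genes fell in 15 of 17, and mitotic cyclins and kinases in 9 of 11. Without control replicate 1 the count lower was 17, the fewest of the 25 alternatives, and the highest was 35. By description 0 of 41 were called, with a median of -0.19. In bulk RNA, fewer dividing cells and less RNA in each cannot be told apart.

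CCNB1, the cyclin that drives entry into mitosis, read 8.87 and 8.67 in the controls and 7.59 and 7.33 at 24 h. The log2 difference was -1.31 (SE 0.13, limma adjusted p = 0.00018), and both arrays lay below both controls. The kinesin KIF20A, which acts in cytokinesis, went from 11.27 and 11.10 to 9.88 and 9.90, a difference of -1.29 (SE 0.11). MKI67, the source of the Ki-67 proliferation antigen, read 6.95 and 6.93 in the controls and 5.87 and 5.71 at 24 h, a difference of -1.15 (SE 0.16). The kinases BUB1 (-0.92), AURKA (-0.91) and NEK2 (-0.90) fell by about as much as each other, and the value for TOP2A, which untangles DNA, was -0.41. Among the 25 processing alternatives that kept the sample columns, to which counts of lost calls refer throughout, the NEK2 call was lost in 2 and that of TOP2A in 5.

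DNA replication genes moved the same way by smaller amounts: 17 of 39 fell and 0 rose (background 8.78% and 9.24%), with a median of -0.32. The count was 8 without control replicate 1, 8 without control replicate 2 and 8 without ciclopirox 24 h replicate 2. By description it was 0 of 39, with a median of -0.19. E2F2, a transcription factor of the S phase, read 9.81 on both controls and 8.33 and 8.39 at 24 h, a difference of -1.45 (SE 0.11). CCNA2, the S-phase cyclin, differed by -0.95, the origin licensing factor ORC1 by -0.89, POLE2 of DNA polymerase epsilon by -0.76, GINS2 of the replicative helicase by -0.71 and the helicase subunit MCM6 by -0.69. RRM2 and RRM1 of ribonucleotide reductase were not among them. RRM2, an iron-holding subunit, read 10.26 and 9.999 in the controls and 10.38 and 10.19 at 24 h (difference 0.16, SE 0.16, limma adjusted p = 0.52). RRM1, the large subunit, differed by 0.11 (SE 0.11). RRM2B, a further subunit gene, was counted here with the p53 targets of feedback and repair. The 5 tested genes of that group, RRM2B among them, were each higher than control by 0.65 or more. RRM2B was also higher at 24 h than at 8 h by limma.

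In the 250 bases before the start, CCAAT stood in 23 of the 27 promoters available among mitosis genes called lower (85.2%) and in 24 of 35 of those tested (68.6%), against 33.0% of all. TTTGAA, a form of the cell cycle homology region, stood in 16 of 27 called lower (59.3%) and 20 of 35 tested (57.1%), against 13.6% of all. CCNB1 is shown at chr5:69167033-69167097 as an example with the first of its CCAAT matches in capitals.
CCNB1: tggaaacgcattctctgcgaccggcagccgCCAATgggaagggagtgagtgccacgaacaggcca

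Cytosolic and mitochondrial chaperones were lower while part of the endoplasmic reticulum programme was higher. Of 11 chaperones of the heat shock group, 10 fell and 0 rose (background 8.78% and 9.24%), with a median of -0.75. All 11 were lower at 24 h than at 8 h, where the background lower was 8.84%. Of 10 endoplasmic reticulum genes, 3 rose and 1 fell. Over both, the count lower was 7 to 11 in the 25 alternatives, the fewest being without control replicate 1, and by description 0 of 21.

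HSPA1A and HSPA1B encode nearly the same stress-inducible HSP70, so their probes may each read RNA of both, and values of either are uncertain. HSPA1A read 9.09 and 8.99 in the controls and 5.67 and 6.42 at 24 h, a difference of -2.99 (SE 0.24, limma adjusted p = 5.2e-05). HSPA1B read 11.75 and 11.60 and then 9.36 and 9.39, a difference of -2.30 (SE 0.11, limma adjusted p = 1.5e-06). For both, the 3 arrays at 8 h lay between control and 24 h.

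HSPE1, the mitochondrial co-chaperonin, fell by 1.09 (SE 0.14), and the small heat shock protein HSPB1 fell by 0.89 (SE 0.18, lost in 1 of 25 alternatives). XBP1, a transcription factor of the unfolded protein response, went from 10.61 and 10.62 to 12.15 and 11.90, a rise of 1.42 (SE 0.12), and its target DNAJB9 rose by 0.94 (SE 0.14).

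A heat shock element core, GAANNTTC (it is its own reverse complement), stood in 5 of the 10 promoters of chaperones called lower (50%), in 5 of 21 of the whole list (23.8%) and in 5.85% of all promoters. The windows of HSPA1A (chr6:31815407-31815474) and HSPA1B (chr6:31827603-31827670) differ at 2 of 68 bases, A25C and C63T (HSPA1A first, counted from 1 at the window's 5′ end). That of HSPB1 lies at chr7:76302461-76302528. The core is in capitals.
HSPA1A: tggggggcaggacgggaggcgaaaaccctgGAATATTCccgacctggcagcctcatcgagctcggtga
HSPA1B: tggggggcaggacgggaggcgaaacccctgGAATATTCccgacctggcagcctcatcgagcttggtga
HSPB1: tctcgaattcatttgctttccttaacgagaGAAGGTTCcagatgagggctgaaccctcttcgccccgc

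The 5 motifs were chosen after the results were seen, and a match describes these letters only. None of the 5 contains another.

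**Figure D5:**
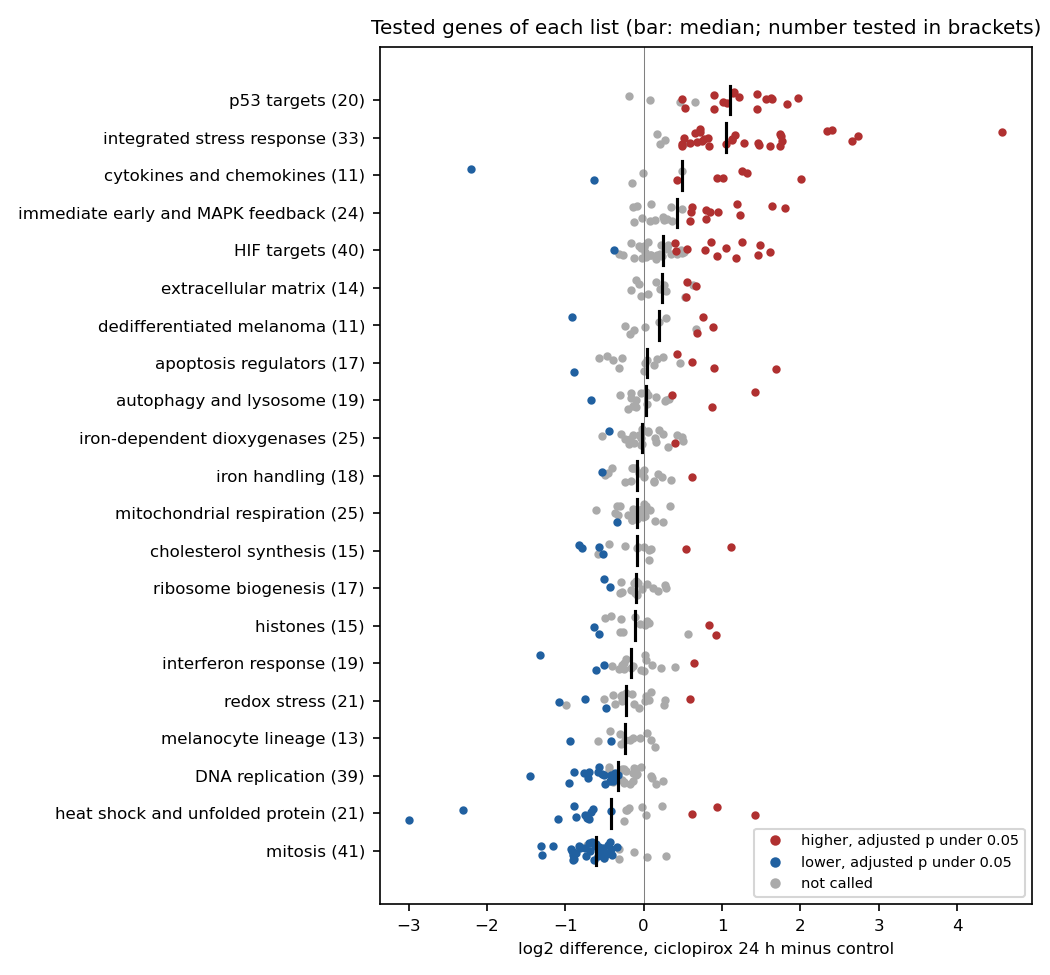
Log2 difference between ciclopirox at 24 h and control for every tested gene of 21 lists (points, red higher, blue lower, grey not called), with the median as a bar and the number tested in brackets. The p53 and integrated stress response lists have medians of 1.10 and 1.04, and the mitosis list of -0.60.

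Immediate early genes and feedback regulators of MAPK signalling were higher in 11 of 24, with 0 lower (background 9.24% and 8.78%) and a median of 0.42 (by description 0 of 24 and 0.22). EGR1, a growth-factor-induced transcription factor, read 9.45 and 9.43 in the controls, 8.94, 9.25 and 9.15 at 8 h, and 11.12 and 11.03 at 24 h, a difference from control of 1.63 (SE 0.14, limma adjusted p = 7.1e-05). FOS rose by 1.80 (SE 0.20), FOSB by 1.23, the MAPK phosphatases DUSP5 by 1.20, DUSP1 by 0.94 and DUSP4 by 0.84, and MYC by 0.79. DUSP6, an ERK phosphatase, differed by 0.24 (limma adjusted p = 0.16).

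Of 11 cytokine and chemokine genes, 6 rose and 2 fell (background 9.24% and 8.78%, and by description 0 of 10 were called). IL24, an interleukin of the IL-10 family first found in melanoma cells, went from 7.87 and 7.60 to 9.79 and 9.69, a rise of 2.005 (SE 0.15, limma adjusted p = 2.5e-05). IL1A rose by 1.31 (SE 0.11) and IL1B by 1.25 (SE 0.15), both alarm cytokines, with the NF-kB brake TNFAIP3 at least 1.94-fold higher than in the controls, where it was not well above background. TNFAIP3 passed the detection filter through the 24 h arrays alone and is among the 6 counted as higher. CCL2, a monocyte attractant, went the other way, from 8.48 and 8.58 to 6.46 and 6.20, a difference of -2.20 (SE 0.13, limma adjusted p = 7.6e-06). CXCL8, a neutrophil attractant, fell by 0.64 (limma adjusted p = 0.049), and that call was lost in 14 of 25 alternatives.

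Of 32 listed iron handling genes 18 were tested, and 1 was higher and 1 lower, near the shares of all genes (9.24% and 8.78%). Their median was -0.08, and 0.052 by description with 0 called. ALAS1, the first enzyme of heme synthesis, rose by 0.62 (SE 0.14), a call lost in 4 of 25 alternatives, and the ferrireductase STEAP3 fell by 0.53 (SE 0.15), a call lost in 9 of 25. FTL, the ferritin light chain, differed by 0.00 (SE 0.10), and HMOX1, heme oxygenase, by -0.49 (limma adjusted p = 0.18). TFRC, FTH1, CA9 and EGLN3 had no probe named in the tables used here and were not analysed here. Iron-dependent dioxygenases had 1 gene higher and 1 lower of 25, and mitochondrial respiration 0 higher and 1 lower of 25. DOHH, the iron enzyme of hypusine synthesis, differed by -0.53 (limma adjusted p = 0.11) and its substrate gene EIF5A by 0.06.

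Redox genes had 1 higher and 3 lower of 21 (4.76% and 14.3%, against 9.24% and 8.78% of all genes). By description 0 of 21 were called, with a median of -0.034. The cystine transporter SLC7A11 rose by 0.59, a call lost in 5 of 25 alternatives, and the glutathione synthesis subunit GCLM fell by 0.75 (SE 0.11). The metallothionein MT1X read 10.95 and 10.96 in the controls and 9.37 and 10.38 at 24 h, a difference of -1.08 (SE 0.31) that was lost in 6 of 25 alternatives. Most of the fall in MT1X lay on replicate 1.

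Pigment cell markers were mostly not detected. Of 7 marker genes with a named probe, 5, among them the pigment genes MLANA, PMEL, TYR and TYRP1, were detected on 0 of the 4 arrays, while SOX10 and MITF were detected. SOX10, a neural crest factor, read 11.56 and 11.43 in the controls and 11.46 and 11.62 at 24 h. MITF differed by -0.14 (limma adjusted p = 0.63). Of 13 tested melanocyte lineage genes, 0 rose and 2 fell (background 9.24% and 8.78%). The falls were led by the receptor ERBB3 (9.66 and 9.55, then 8.63 and 8.70, a difference of -0.94, SE 0.11). Among markers of other cell types, endothelial genes were detected on 0 of the 4 arrays in 5 of 5 cases, fibroblast genes in 5 of 7, keratinocyte genes in 4 of 5, leukocyte genes in 5 of 7 and red cell genes in 4 of 5.

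Of apoptosis regulators 4 of 17 rose and 1 fell (background 9.24% and 8.78%, and by description 0 of 17). Calls did not all go towards death. Of 7 pro-death genes 2 rose and 0 fell (median -0.001), and of 5 pro-survival genes 1 rose and 1 fell (median 0.13). Of 5 caspases 1 rose and 0 fell. The death activator HRK rose by 1.69 (SE 0.40), with 6.97 and 7.88 at 24 h, a call lost in 3 of 25 alternatives. Of the pro-survival genes, BCL2L1 rose by 0.62, and BIRC5, the mitotic survivin, fell by 0.89 (SE 0.12). Of autophagy and lysosome genes 3 of 19 rose and 1 fell, against the same background. Among those that rose were WIPI1, an early autophagosome protein, by 1.42 (SE 0.18), and MAP1LC3B, a membrane marker of autophagosomes, by 0.87 (SE 0.15).

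Against a background of 9.24% higher and 8.78% lower, counts higher and lower in the remaining lists were 2 and 4 of 15 for cholesterol synthesis, 1 and 3 of 19 for interferon response, 0 and 2 of 17 for ribosome biogenesis, 3 and 0 of 14 for extracellular matrix, 2 and 2 of 15 for histones, and 3 and 1 of 11 for dedifferentiated melanoma. Within them, ABCA1, a cholesterol exporter, rose by 1.12 (SE 0.19) and IFIT1, an interferon-induced antiviral gene, was at least 2.23-fold lower, being not well above background on either array at 24 h. IFIT1 thus passed the detection filter through the controls alone and is among the 3 counted as lower in its list.

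Outside the lists, TXNIP, an inhibitor of thioredoxin and glucose uptake, went from 8.88 and 8.995 to 11.26 and 11.46, a rise of 2.42 (SE 0.14, limma adjusted p = 4.4e-06). CTH, which makes cysteine from cystathionine, rose by 2.28 (SE 0.22), the neutral amino acid transporter SLC1A4 by 1.99 (SE 0.13, with 1 of 2 controls not detected), the kinase RPS6KA2 by 2.26 (SE 0.13) and the ubiquitin ligase HECW2 by 2.44 (SE 0.17). HECW2 had risen by 1.57 at 8 h already (6.73, 6.81 and 6.98 against 5.32 and 5.22 in the controls). Among the falls, the log2 difference was -1.94 for COL8A1 (SE 0.16), a short-chain collagen, -1.70 for DKK3 (SE 0.13), a Dickkopf family member, and -1.62 for the growth factor receptor FGFR3 (SE 0.16). COL8A1 and FGFR3 were each detected on 1 of the 2 arrays at 24 h, so their low values lie at the edge of background.

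Short non-coding RNAs were among the largest falls. RPPH1, the RNA of ribonuclease P, read 7.72 and 7.87 in the controls and 5.33 and 6.71 at 24 h, a difference of -1.77 (SE 0.43, limma adjusted p = 0.018, lost in 3 of 25 alternatives). SNORD36A differed by -1.48 (lost in 2 of 25) and SNAR-A1 by -1.49 (lost in 8). SNHG9, a snoRNA host that is not itself in the short classes counted next, differed by -1.4998 (lost in 4). Counted after the values were seen, 23 of 115 tested genes of RefSeq's short non-coding classes were lower and 2 higher (background 8.78% and 9.24%), with a median of -0.24. By description, the only probes called were those of KCNH1 and HSPE1, which are not in these classes.

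With scanner columns taken by description, 0 of the 111 called named genes measured there were called by limma. The log2 differences were 2.67 for GDF15, 1.31 for DDIT3, 1.23 for ATF3, 1.14 for SESN2 and 0.88 for ASNS. Among p53 and HIF targets they were 1.06 for GADD45A, 0.90 for PHLDA3, 0.87 for STC2, 0.84 for VEGFA, 0.74 for DDIT4, 0.66 for ALDOC, 0.16 for EDN1 and -0.033 for ANGPTL4. HSPA1A differed by -1.68, HSPA1B by -1.40, CCL2 by -1.34, E2F2 by -0.71, CCNB1 by -0.53 and MKI67 by -0.39, and IL24 by 1.72, TXNIP by 2.11 and EGR1 by 0.52. These values share both controls and 1 array with the main ones.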

How the data were processed

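Per the labels' protocols, RNA (300 ng) was amplified, biotin-labelled and hybridised to Illumina BeadChips. Per the file headers, the deposited scanner table holds signal intensity and detection p-values for 47230 probes on each array. The deposited normalized table holds linear intensity for 38223 probes, from the authors' processing with GenomeStudio, per the submitters' processing notes. Its version and normalization are not given in the sources used here. Array medians in it lay between 25.0 and 26.4. Per-sample columns left unused numbered 0.

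The design fixed for the tests took scanner columns by array description with neqc (offset 16). After the scanner columns were found to match other samples, and before calls were counted again under the other keyings (few calls by description were known from earlier results), the main values became log2 of the normalized table (a departure from that design), with detection p-values from the scanner columns matched by their values, so the detection filter and the fold bounds rest on that match. All 3 settings were run: 2424 calls in the normalized table, 3029 with scanner columns matched by value and 2 with columns by description. A further 2069 probes detected on at least 2 of 12 arrays are in the scanner table alone and were not analysed here.

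limma 3.58.1 in R 4.3.3 fitted 1 mean per group over 12 arrays (7 residual degrees of freedom), with Benjamini-Hochberg adjustment over the 14773 tested probes. Scripts were tested on simulated data. Of the probes of the normalized table, 27004 have 1 gene symbol in the platform annotation, 4 several and 11215 none, and names come from the first. A gene is given by its brightest tested probe. Each SE is limma's, from a residual variance over all 12 arrays moderated across probes, so it is not the spread of the 4 arrays shown. The means of control and 24 h rest on 2 arrays each, which limits precision.

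Genes were named by rule: the 10 smallest p, the 15 largest rises and 15 largest falls without overlap, up to 6 per list by size, the 5 highest and 5 lowest between the 24 h arrays, and a fixed set. KCNH1, CHAC1 and AARS1 were not. The members and lists were chosen with earlier results of these data known. Alternatives were the filter, scaling, offset, model, keying and leaving out each array.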

Additional observations from a re-analysis of the deposited data

Results flagged for a closer look

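The difference between 24 h and 8 h of ciclopirox was itself tested, for the whole table and for the genes fixed by name. Over all tested probes, 2872 differed by limma (1637 higher and 1235 lower at 24 h). Scaling mattered for the direction: with scanner values matched by value and median-centred, 2728 were higher and 681 lower, and the median over all probes moved from 0.01 to 0.11 on the log2 scale.

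Fixed genes higher at 24 h than at 8 h were GDF15 (by 4.61 on the log2 scale), DDIT3 (2.37), ATF3 (2.20), EGR1 (1.96), CDKN1A (1.503), ASNS (1.38), TRIB3 (1.24), VEGFA (0.82), DDIT4 (0.53) and DUSP6 (0.38). Those lower at 24 h than at 8 h were CCNB1 (-1.29), MKI67 (-0.97), SLC2A1 (-0.50), BNIP3 (-0.49) and CCND1 (-0.47). CCND1, the G1 cyclin, was higher than control at 8 h and differed from it by 0.10 at 24 h. CDKN1A at 8 h read at the level of the controls, in which it was not well above background, so its value is no exact size. It passed the detection filter through the 24 h arrays alone, so its difference has no test as support. Beside the gene lists counted in the results, only the fixed genes and the count of probes were examined in this way.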

How the results depend on the processing

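The keying of arrays to samples changed the results most. With scanner columns taken by description, calls were 2 at 24 h against control and 0 at 24 h against 8 h by limma (2388 probes at an unadjusted p below 0.05). Of 111 called genes measured there, 0 were called and 106 had the same sign, though that fit shares the controls and 1 array with the main one. Directions reversed there for ANGPTL4 (-0.033), H2AC6 (-0.029), ABCA1 (-0.16), LSS (0.010) and PLAT (-0.12) and for the medians of dedifferentiated melanoma (-0.027), ribosome biogenesis (0.018), interferon response (0.023), iron handling (0.052), cholesterol synthesis (0.041) and mitochondrial respiration (0.0088). The cause was not tested. Counts against control and against 8 h were 999 and 1167 with no filter, which tests more dim probes, and 1258 and 1843 with only the groups compared, which leaves fewer arrays. Leaving out 1 array gave 1076 to 2527 calls against control and 1359 to 2895 against 8 h (1359 without ciclopirox 24 h replicate 1 and 1884 without replicate 2). The replicate block gave 2214 and 2313. Deviations of same-numbered arrays correlated at 0.070 between control and 24 h and at 0.135 and 0.162 between 8 h and 24 h, and at 0.40 between ciclopirox and crizotinib at 24 h. The labels do not say what the numbers share. Of 115 called named genes, 78 kept their call in every alternative that kept the sample columns, and 0 reversed. With 2 arrays per group, small differences cannot be resolved, and signal near background gives only bounds.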
